A study of Arabidopsis thaliana with 15 samples.

Results

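Early auxin response genes were followed in roots of Arabidopsis thaliana, wild type of the ecotype Columbia-0, after hydrogen peroxide (H2O2), an oxidant, with or without RB. The genes were chosen by AGI code, the locus code of Arabidopsis: IAA1, IAA2, IAA3, IAA7, IAA14, IAA17, IAA19, GH3.1, GH3.3 and GH3.5. Of these 10 codes, 8 were among the 14532 genes of the deposited count table, and IAA1 and IAA3 were not analysed here. Of the 8, 6 had counts high enough to be tested (IAA7, IAA14, IAA17, IAA19, GH3.1 and GH3.3), out of 9986 genes tested in all, and IAA2 and GH3.5 were below that filter.

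Roots came from 7-day-old seedlings in 5 groups of 3 libraries, written a, b and c, with 30 to 50 seedlings to a biological replicate. In one group 10 µM RB was added to 5 mM H2O2 over 2 h, and 3 groups had been in 5 mM H2O2 alone for 1, 2 or 3 h. The last group had been in water, which carries time 0 in the sample titles and 1 h in the treatment field. A treatment field spells RB as MRB, and Rose Bengal, which stands in the title of the series, is a photosensitizing dye and a source of singlet oxygen when lit. The water control matches the 1 h group in stated time; the other groups differ from it in time as well as in agent. RB without H2O2 was not analysed here.

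Auxin acts by removing a brake on transcription. Aux/IAA proteins, encoded by the IAA genes, bind auxin response factors (ARFs) and hold their target genes silent with corepressors of the TOPLESS family. Auxin joins an Aux/IAA protein to a receptor of the TIR1/AFB family, the Aux/IAA protein is degraded, and the ARFs are freed. Many IAA genes are themselves targets of the ARFs, as are many GH3 genes, several of which encode enzymes that join auxin to amino acids and so lower the free hormone. Both kinds of transcript rise quickly after auxin and are used as readouts of the auxin response. In roots the hormone guides the meristem, bending and the start of lateral roots.

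The ARFs bind the auxin response element, of which TGTCTC is the classic core and TGTCGG a variant. Both were searched on both strands from 250 bases before to 50 bases after the annotated gene start, in RefSeq TAIR10.1, for all 10 codes. These motifs do not overlap each other's letters at any match found. The core TGTCTC was held by 14.2% of 27443 promoters of this length, TGTCGG by 5.12%, and either by 18.7%. IAA19 held 3 matches to TGTCTC, and IAA1, GH3.1, GH3.3 and GH3.5 held 1 each. IAA1 also held 1 TGTCGG, on the opposite strand like its TGTCTC. IAA2, IAA3, IAA7, IAA14 and IAA17 held neither, which says only that these letters are absent from this window. The stretches below are shown for IAA7, IAA14 and GH3.1, which were called in a comparison, and for IAA19, which was called in none and held 3 matches. They are the 250 bases before the start of IAA7 (chr3:8194356-8194605, plus strand), IAA14 (chr4:8350264-8350513, minus strand) and IAA19 (chr3:5263751-5264000, plus strand), and for GH3.1 30 bases around its match, which lies 31 bases after the start (chr2:6453749-6453778, minus strand). Capitals mark TGTCTC, which in IAA19 begins at positions -184, -145 and -128 from the start. The coordinates are those of RefSeq TAIR10.1, and for the counts the build was not given in the sources used here.
IAA7: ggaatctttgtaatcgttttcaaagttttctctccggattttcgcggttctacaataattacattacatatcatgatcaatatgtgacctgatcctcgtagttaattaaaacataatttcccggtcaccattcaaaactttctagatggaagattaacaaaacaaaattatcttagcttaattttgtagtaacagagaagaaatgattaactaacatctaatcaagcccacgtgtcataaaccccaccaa
IAA14: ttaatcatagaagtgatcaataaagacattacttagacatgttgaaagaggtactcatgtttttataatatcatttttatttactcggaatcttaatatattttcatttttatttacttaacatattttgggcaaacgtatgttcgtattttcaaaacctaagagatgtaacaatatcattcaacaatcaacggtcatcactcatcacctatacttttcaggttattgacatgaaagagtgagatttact
IAA19: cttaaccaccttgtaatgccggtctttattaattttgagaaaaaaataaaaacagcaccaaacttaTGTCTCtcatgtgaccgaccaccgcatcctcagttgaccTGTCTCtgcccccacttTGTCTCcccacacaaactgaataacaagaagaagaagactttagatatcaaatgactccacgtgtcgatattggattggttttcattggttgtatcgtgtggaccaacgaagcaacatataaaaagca
GH3.1: ataaactccttcTGTCTCtctcctctctac

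The IAA genes lie partly in neighbouring pairs. In RefSeq TAIR10.1, IAA7 and IAA2 on chromosome 3 have only AT3G04375 annotated between them, IAA14 and IAA1 on chromosome 4 only AT4G06200, and IAA17 and IAA3 on chromosome 1 only AT1G04253. From each pair 1 gene was tested (IAA7, IAA14 and IAA17). No listed member overlapped another annotated gene.

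Libraries held 689372 to 6231140 counts in total. Levels below are CPM, counts scaled to a common library total with TMM, a normalization that equalizes library composition. The libraries carry tags of 3′ ends, so CPM are not divided by transcript length, and differences in level are given between libraries, not between genes. Each gene was tested with edgeR's quasi-likelihood test in 1 model of all 15 libraries, and called at a Benjamini-Hochberg (BH) adjusted p under 0.05 over the 9986 genes; every adjusted p below is from this test unless another is named. Root lists of marker genes were all detected, but the summed CPM of 4 root hair markers was 7.7 to 22.6 with H2O2 plus RB, and 14.2 to 31, 10.3 to 15.7 and 7.94 to 12.9 at 1, 2 and 3 h of H2O2, against 108 to 169 in water. Of the 3 root hair markers tested, EXPA7 and PRP3 were lower in all 4 comparisons with water (log2 -5.09 to -2.75), while RHD6, a factor that starts root hair formation, was called in none (-0.79 to -0.06). The summed CPM of 3 root cap markers was 6.16 to 8.1 with RB and 11.7 to 22.1, 5.13 to 8.82 and 4.47 to 7.12 at 1, 2 and 3 h, against 16.7 to 23.3 in water. The root cap marker SMB was lower than water at 2 h (log2 -1.36), at 3 h (-1.89) and with RB (-1.38), and was not called at 1 h. No marker tested of cortex and endodermis or of the root tip meristem was called against water, and of 3 stele markers tested 1 was lower, with RB (edgeR). A list of 9 shoot markers summed to 175 to 311 CPM in 14 libraries and to 547 CPM in RB replicate c, which stood apart. Of those tested, LHCB2.1 was higher in all 4 comparisons with water (log2 2.7 to 4.6). LHCB1.3 was higher at 3 h (1.11) and with RB (1.76), and RBCS3B with RB (2.57). RBCS1A, LHCA1 and RCA were not called against water (edgeR). The part of these differences in the results was not tested, and in whole roots fewer cells of a type and less RNA per cell cannot be told apart.

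Of the 6 early auxin response genes tested, GH3.1 fell at 3 h of H2O2 and IAA7 and IAA14 fell with H2O2 plus RB, all against water. IAA17, IAA19 and GH3.3 were called in none of the comparisons with water. Against water, none of 6 was called at 1 h of H2O2, where 9.59% of all genes tested were called, and none of 6 at 2 h, where 13.9% were. At 3 h 1 of 6 was called, GH3.1, which fell, beside 30.5% of all genes called and 14.4% called lower. With H2O2 plus RB at 2 h, 2 of 6 were called, IAA7 and IAA14, which both fell, beside 21.2% of all genes called and 9.62% called lower. Counted in either direction, none of these 4 counts differed by as much as 1 gene from what the background share would give among 6. Both calls with RB were lower ones, where the share called lower would give under 1 gene among 6, and no test of that count was made. At 1 h and at 2 h edgeR gave 0 of 6 at an unadjusted p under 0.05, and DESeq2 called 0 at both times and the same number as edgeR in the comparisons at 3 h and with RB. One test per gene over all 5 groups called 1 of 6, IAA7 (edgeR quasi-likelihood, adjusted p = 0.0291), beside 30.9% of all genes.

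**Figure D1:**
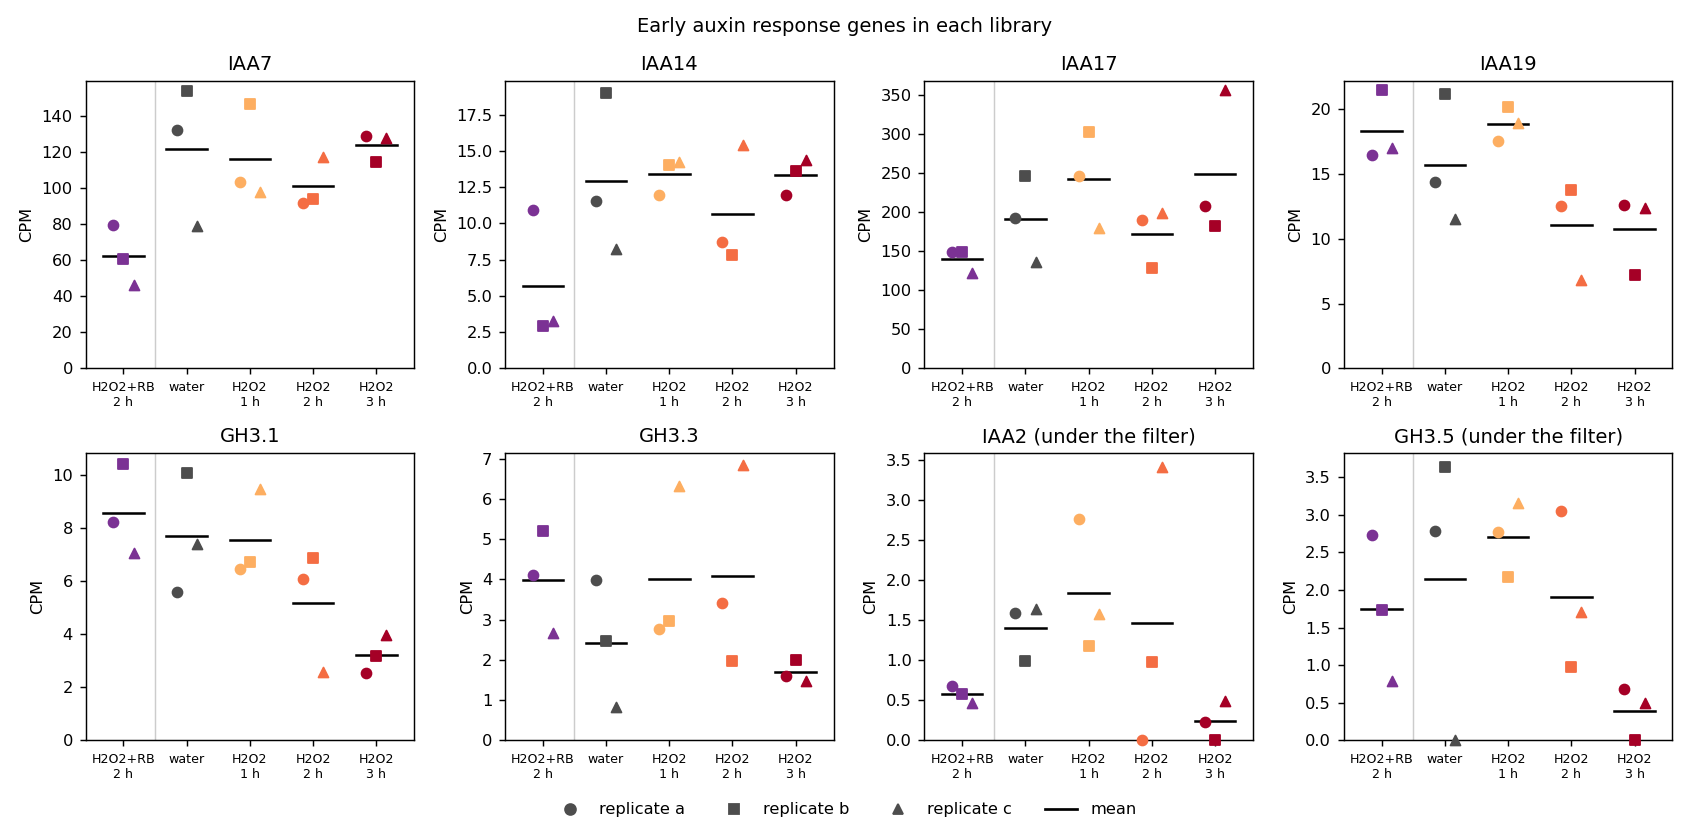
Level of each listed gene in every library (CPM, linear axis from 0), with H2O2 plus RB at the left and the series from water to 3 h of H2O2 to its right; point shapes are replicates a, b and c and bars are means of 3. IAA7 and IAA14 are lowest with RB, and GH3.1 is lowest at 3 h of H2O2.

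IAA7 (AT3G23050), whose stabilized form gives the auxin-resistant axr2 mutant, was the gene with the clearest difference. It stood at 79.4, 60.8 and 46.4 CPM in replicates a, b and c of H2O2 plus RB. In the series it stood at 132, 154 and 78.8 CPM in water, 103, 147 and 97.9 CPM at 1 h, 91.6, 94.1 and 117 CPM at 2 h and 129, 115 and 128 CPM at 3 h. RB replicates b and c were the lowest of the 15 libraries, and water replicate c lay just below RB replicate a. By mean level the order of groups was 3 h, water, 1 h, 2 h and RB, and each neighbour's range overlapped the next except 2 h of H2O2 and RB.

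Against water IAA7 averaged 62.2 ± 16.5 CPM with RB and 122 ± 38.6 CPM in water (SD, n = 3 each). The log2 fold change was -0.997 ± 0.262 (SE), with a 95% confidence interval of -1.54 to -0.45 (edgeR, adjusted p = 0.00933). The call was kept in 22 of 22 alternatives, at log2 -1.26 to -0.83 and adjusted p = 0.00183 to 0.0498, with the highest of these without RB replicate c. Against H2O2 alone for the same 2 h, IAA7 was at log2 -0.71 ± 0.265, with an interval of -1.27 to -0.159, and did not pass the test (edgeR, adjusted p = 0.224), though the 3 libraries of each group did not overlap. After H2O2 alone its fold changes against water were log2 -0.06 at 1 h (interval -0.603 to 0.477), -0.28 at 2 h (-0.826 to 0.258) and 0.01 at 3 h (-0.522 to 0.543), the last negative under upper-quartile scaling.

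IAA14 (AT4G14550), the SOLITARY-ROOT repressor of lateral root initiation, had a similar pattern at a lower depth of counts. It stood at 10.9, 2.90 and 3.301 CPM in replicates a, b and c of H2O2 plus RB. In water it stood at 11.6, 19.0 and 8.21 CPM, at 1 h at 11.98, 14.02 and 14.2 CPM, at 2 h at 8.75, 7.84 and 15.4 CPM and at 3 h at 11.9, 13.6 and 14.4 CPM. RB replicates b and c were the lowest of the 15, while RB replicate a lay within the range of every group but 1 h and 3 h. The mean order was 1 h, 3 h, water, 2 h and RB, and the ranges of all neighbours in it overlapped.

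Against water IAA14 averaged 5.71 ± 4.53 CPM with RB and 12.9 ± 5.53 CPM in water (SD, n = 3 each), a log2 fold change of -1.39 ± 0.452 (SE; interval -2.33 to -0.441; edgeR, adjusted p = 0.0337). The call was lost without water replicate b (log2 -1.0, adjusted p = 0.189), RB replicate b (-1.19, adjusted p = 0.124) or RB replicate c (-1.09, adjusted p = 0.165), and under 3 other alternatives, among them thinning of all libraries to the lowest total (log2 -0.68, adjusted p = 0.366). Against 2 h of H2O2 alone IAA14 was at log2 -1.02 ± 0.482, with an interval of -2.03 to -0.0132, and was not called (edgeR, adjusted p = 0.392). In the authors' deposited table, where the sign is water over treated, IAA7 had a log2 fold change of 1.01 with an adjusted p of 0.00441 and IAA14 of 1.39 with an adjusted p of 0.0331.

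IAA17 (AT1G04250), known as AXR3, a repressor studied for root growth and root hairs, gave 150, 149 and 122 CPM in the RB libraries. The series gave 193, 246 and 136 CPM in water, 246, 303 and 180 CPM at 1 h, 191, 128 and 199 CPM at 2 h and 208, 183 and 357 CPM at 3 h. The RB group had the lowest mean, but every neighbour in the order of means (3 h, 1 h, water, 2 h, RB) overlapped the next. No fold change passed the test: IAA17 was at log2 -0.47 ± 0.281 with RB against water (edgeR, adjusted p = 0.273) and between -0.16 and 0.37 in the H2O2 series against water.

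IAA19 (AT3G15540), the MSG2 repressor known from bending of hypocotyls, had another order of groups. It gave 16.4, 21.4 and 17.0 CPM with RB, 14.3, 21.2 and 11.5 CPM in water, 17.5, 20.2 and 18.9 CPM at 1 h, 12.6, 13.7 and 6.83 CPM at 2 h, and 12.6, 7.19 and 12.4 CPM at 3 h. The 2 h and 3 h groups were the lowest by mean, and the RB group lay above both with no overlap. IAA19 was at log2 0.71 ± 0.345 with RB against 2 h of H2O2 (interval -0.0161 to 1.43; edgeR, adjusted p = 0.417). At 3 h against 1 h of H2O2 it was at log2 -0.81 ± 0.337, again with no overlap and no call (edgeR, adjusted p = 0.117).

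GH3.1 (AT2G14960), of the GH3 family of acyl amido synthetases, was the only tested gene called against water after H2O2 alone, lower at 3 h. With RB it gave 8.21, 10.4 and 7.07 CPM. It gave 5.58, 10.08 and 7.39 CPM in water, 6.45, 6.72 and 9.47 CPM at 1 h, 6.08, 6.86 and 2.56 CPM at 2 h and 2.53, 3.19 and 3.97 CPM at 3 h. The RB libraries lay above all of the 2 h and 3 h libraries of H2O2 alone. The 3 h libraries lay below all libraries of water, 1 h and RB (43.3% of all genes had no overlap between 3 h and water), but not all of them below 2 h replicate c.

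At 3 h GH3.1 averaged 3.23 ± 0.722 CPM, against 7.68 ± 2.27 CPM in water (SD, n = 3 each). The log2 fold change was -1.31 ± 0.415 (SE; interval -2.18 to -0.443; edgeR, adjusted p = 0.0224), on 27 counts in the 3 libraries of 3 h and 84 in those of water. The call was lost without water replicate b (log2 -0.99, adjusted p = 0.157), 3 h replicate a (-1.14, adjusted p = 0.0844) or 3 h replicate b (-1.32, adjusted p = 0.0587). The authors' deposited table gives GH3.1 at 3 h a log2 fold change of 1.33, water over treated, with an adjusted p of 0.788. That fold change is close to the one here, but the adjusted p differs from the call here, which DESeq2 also made. For every listed gene the deposited adjusted p at 3 h against water was 0.788 or higher. The reason was not tested. At 2 h of H2O2 GH3.1 was at log2 -0.58 ± 0.422 (edgeR, adjusted p = 0.417), and with RB at 0.09 ± 0.387 (edgeR, adjusted p = 0.905), both against water.

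GH3.3 (AT2G23170), which encodes an enzyme that conjugates auxin to amino acids, had few counts. It gave 4.10, 5.21 and 2.67 CPM with RB, 3.98, 2.48 and 0.821 CPM in water, 2.77, 2.96 and 6.32 CPM at 1 h, 3.42, 1.96 and 6.83 CPM at 2 h, and 1.61, 2.00 and 1.49 CPM at 3 h. Its groups overlapped in most comparisons, and its 95% confidence intervals against water all held 0, at log2 -0.835 to 1.7 at 1 h, -0.622 to 1.85 at 2 h, -1.86 to 0.641 at 3 h and -0.659 to 1.7 with RB. A difference from water was not detectable at this depth.

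The 2 genes below the filter had 0 to 22 counts in a library. IAA2 (AT3G23030) had 1, 1 and 3 counts with RB, 4, 6 and 2 in water, 3, 6 and 1 at 1 h, 0, 1 and 4 at 2 h and 1, 0 and 1 at 3 h. GH3.5 (AT4G27260), another auxin-conjugating enzyme gene, had 4, 3 and 5 counts with RB, 7, 22 and 0 in water, 3, 11 and 2 at 1 h, 8, 1 and 2 at 2 h and 3, 0 and 1 at 3 h. Both had their lowest mean CPM at 3 h, at 0.242 ± 0.248 for IAA2 and 0.395 ± 0.355 for GH3.5, against 1.41 ± 0.362 and 2.14 ± 1.90 in water (SD, n = 3 each). With no filter, GH3.5 was called lower at 3 h than in water (log2 -2.35 ± 0.841; edgeR, adjusted p = 0.0413) and IAA2 was not (-2.22 ± 1.04; edgeR, adjusted p = 0.12). In that fit 24% of 14532 genes were called in either direction. The GH3.5 call rests on 4 counts at 3 h and 29 in water, 22 of them in water replicate b. The authors' deposited adjusted p for GH3.5 at 3 h against water was 0.857. A library count of 0 allows up to 3 counts, for counting error only, which is 1.20 CPM in 3 h replicate b.

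**Figure D2:**
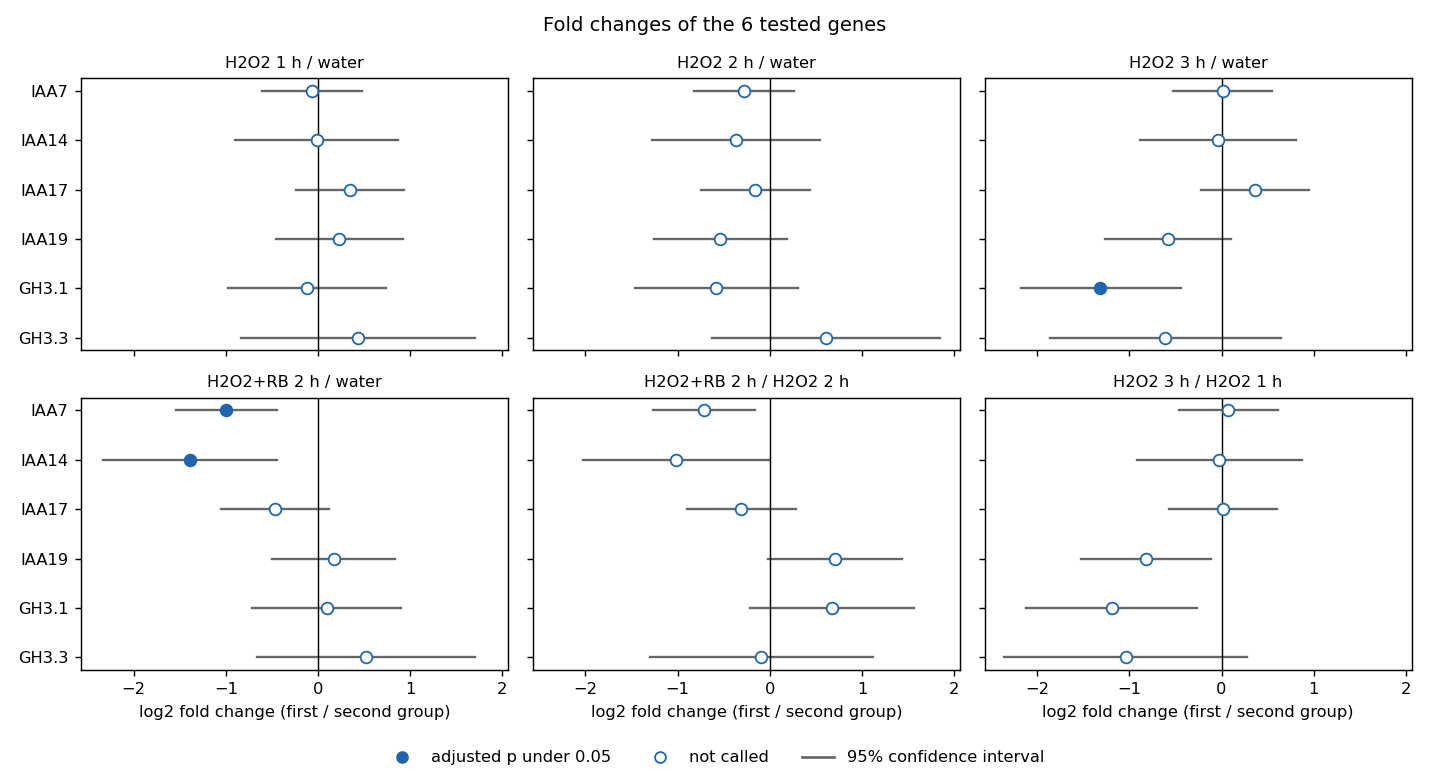
Log2 fold changes (first over second group, points) with 95% confidence intervals (lines) of the 6 tested genes in 6 comparisons; filled points have an adjusted p under 0.05. The filled points are GH3.1 at 3 h and IAA7 and IAA14 with RB, all below 0.

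The comparison of RB added to H2O2 with H2O2 alone, both at 2 h, asks what the dye adds at a matched time. None of 6 genes was called, beside 2.43% of all genes, with 2 of 6 at an unadjusted p under 0.05 by edgeR and 0 called by DESeq2. IAA7, IAA19 and GH3.1 had groups that did not overlap, beside 19.4% of all genes. The level of IAA7 was lower with RB, while the levels of IAA19 and GH3.1 were higher, with GH3.1 at log2 0.67 ± 0.425 (edgeR, adjusted p = 0.58). The median log2 fold change of the 6 genes was -0.20, and 0.02 over all genes tested.

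Within the H2O2 series, 3 h against 1 h gave 0 of 6 calls, beside 13.8% of all genes, with 2 of 6 at an unadjusted p under 0.05 by edgeR and 0 called by DESeq2. The levels of IAA19, GH3.1 and GH3.3 were lower at 3 h with no overlap between the groups, where 28.7% of all genes had no overlap. GH3.1 was at log2 -1.19 ± 0.443 (edgeR, adjusted p = 0.0822) and GH3.3 at -1.04 ± 0.63 (edgeR, adjusted p = 0.295). The medians were -0.42 for the 6 genes and -0.06 for all genes tested. Against water the medians of the 6 genes were 0.11, -0.32 and -0.31 at 1, 2 and 3 h and -0.19 with RB, beside 0.01, -0.03, -0.07 and -0.01 over all genes tested. The adjacent times, compared after the data were seen, gave no call: 0 of 6 at 2 h against 1 h, beside 0.361% of all genes, and 0 of 6 at 3 h against 2 h, beside 2.87%, by edgeR and by DESeq2, with 1 and 0 of 6 at an unadjusted p under 0.05.

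H2O2 plus RB at 2 h and H2O2 alone at 3 h were also compared after the data were seen. All 6 genes had groups that did not overlap, beside 35% of all genes, and 3 of 6 were called, beside 16.4%, with 4 of 6 called by DESeq2. IAA7 was lower with RB by log2 -1.01 ± 0.261 (edgeR, adjusted p = 0.0129) and IAA14 by -1.35 ± 0.453 (edgeR, adjusted p = 0.0479), while GH3.1 was higher by 1.41 ± 0.419 (edgeR, adjusted p = 0.0275). IAA17 was at log2 -0.83 ± 0.282 (edgeR, adjusted p = 0.0503), just outside the threshold, and was called lower in 13 of 22 alternatives, among them DESeq2 (adjusted p = 0.0416). IAA19 was at log2 0.75 ± 0.327 (edgeR, adjusted p = 0.129) and GH3.3 at 1.13 ± 0.591 (edgeR, adjusted p = 0.214). The agent and the time differ together here. Of the 3 calls, that of IAA7 was kept in 21 of 22 alternatives, that of GH3.1 in 16 of 21 and that of IAA14 in 12 of 22. Without RB replicate b 1 of 6 was called, IAA7, with IAA14 at log2 -1.16 (adjusted p = 0.148) and GH3.1 at 1.19 (adjusted p = 0.117). Without RB replicate c 1 of 6 was called, GH3.1, with IAA7 at -0.89 (adjusted p = 0.0522) and IAA14 at -1.04 (adjusted p = 0.193).

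**Figure D3:**
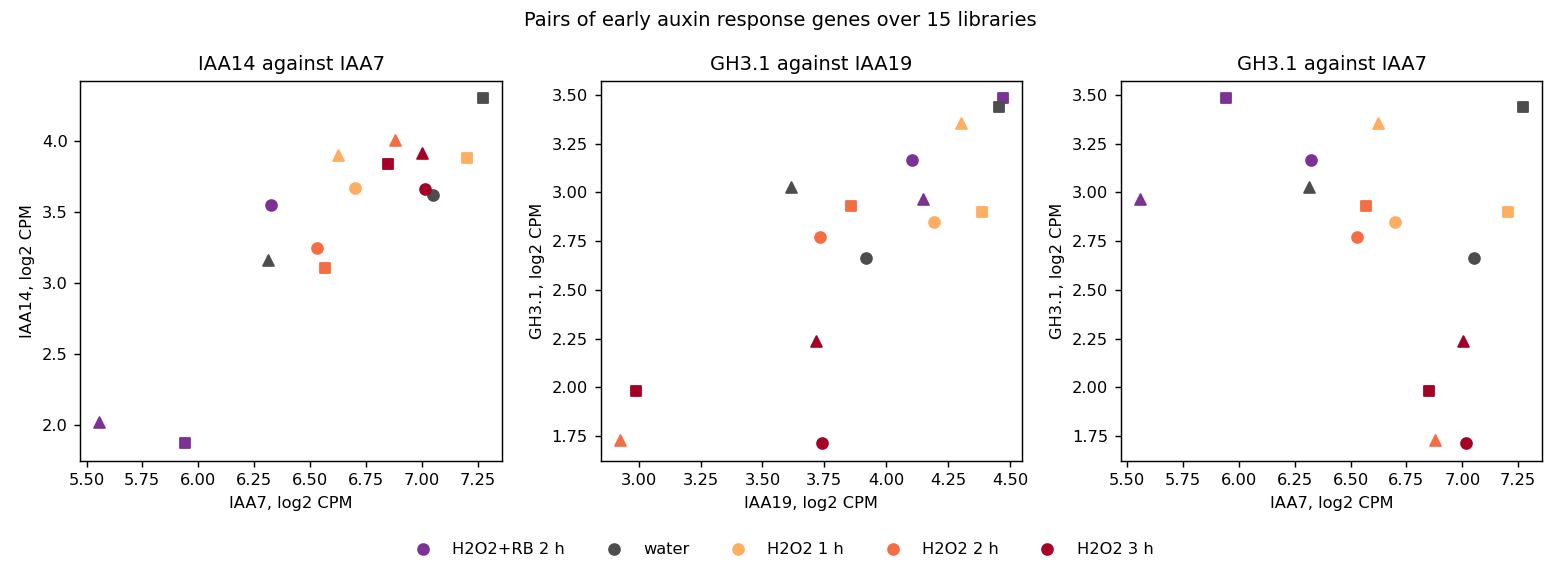
Log2 CPM of 3 pairs of genes over 15 libraries (prior count 2; colours are groups; circles, squares and triangles are replicates a, b and c). IAA14 follows IAA7, with RB replicates b and c at the lower left, and GH3.1 follows IAA19. GH3.1 against IAA7 has a weaker, negative r (-0.39, and -0.13 as deviations from group means). There 3 h of H2O2 lies at the lower right and RB at the upper left.

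Some of the 6 genes varied together over the 15 libraries. IAA7 and IAA14 had a Pearson r of 0.89 in log2 CPM (Spearman rho 0.78), IAA7 and IAA17 0.77 (rho 0.84), and IAA14 and IAA17 0.67 (rho 0.78). IAA19 and GH3.1 had an r of 0.81 (rho 0.72), while IAA7 and GH3.1 had one of -0.39 (rho -0.42). Taken as deviations from group means, r was 0.74 for IAA7 with IAA14 and 0.67 for IAA19 with GH3.1, so these pairs also moved together within groups. For IAA7 with GH3.1 it was -0.13, so their opposite course lay mostly between groups. These are descriptions over libraries that share groups and scaling, and r with log2 depth was -0.3 to 0.26 for the 6 genes. As deviations from group means, r with log2 depth reached 0.41 for IAA17, 0.32 for IAA19 and 0.3 for IAA7, and its part in these correlations was not tested. TGTCTC was found in the windows of IAA19, GH3.1 and GH3.3 and of none of IAA7, IAA14 and IAA17. GH3.3 had an r of only 0.15 with IAA19 and 0.18 with GH3.1. As deviations from group means, its r was -0.17 with IAA19, -0.27 with GH3.1, 0.47 with IAA7 and 0.43 with IAA14. Any part of the motif in these correlations was not tested.

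Genes outside the 10 codes with the most similar course were taken for the IAA gene and the GH3 gene of highest mean CPM. For IAA17 they were ATCAD4 (AT3G19450), of the cinnamyl alcohol dehydrogenase family of lignin synthesis, with an r of 0.92, CMPG1 (0.86), MES3 (0.85), UCP5 (0.84) and the aquaporin gene PIP1;5 (0.84). For GH3.1 they were AT1G80780 (0.90), AT1G16840 (0.87), AT4G24290 (0.87), AT5G42740 (0.87) and the gibberellin receptor gene GID1B (0.86), all over 15 libraries. These are the highest values of r picked over all genes tested, so they are high by selection. The genes listed for GH3.1 had low mean levels, 3.02 to 7.03 CPM. Shared regulation was not tested.

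The remaining parts of the auxin pathway were read from gene lists chosen by family, with counts out of the genes tested. Against water, 6.55% of all genes tested were called higher and 3.04% lower at 1 h, 9.21% and 4.73% at 2 h, 16.2% and 14.4% at 3 h, and 11.6% and 9.62% with RB. These lists hold 2 to 12 tested genes, so their counts are descriptions beside those shares. Of the 37 list calls against water that the naming rule covers, 17 were kept in all alternatives that tested them, and 4 in no more than 11 of 22: TIR1 at 2 h (11), AFB2 at 3 h (5), ARF2 at 1 h (11) and DAO2 at 2 h (8).

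Among 5 TIR1/AFB receptors, which bind auxin together with Aux/IAA proteins, 2 were called lower at 2 h and 2 at 3 h, TIR1 and AFB2 each time, and none at 1 h or with RB (edgeR; 3 and 1 at an unadjusted p under 0.05, 0 and 0 by DESeq2, which called 1 at 3 h). AFB2 at 2 h averaged 31.0 ± 5.71 CPM, against 56.5 ± 13.5 CPM in water (SD, n = 3 each; log2 -0.87 ± 0.254; edgeR, adjusted p = 0.0274), and the call was lost without water replicate a or c or 2 h replicate a or b (log2 -0.94 to -0.69). AFB2 at 2 h was also lost with the groups compared alone (edgeR, adjusted p = 0.0597) and after thinning (log2 -0.57, adjusted p = 0.235). TIR1 at 3 h averaged 80.2 ± 11.6 CPM, against 129 ± 26.6 CPM in water (log2 -0.68 ± 0.219; edgeR, adjusted p = 0.0235), and was lost without water replicate a or 3 h replicate b or c (log2 -0.72 to -0.51). TIR1 at 3 h was also lost with no filter, with the groups compared alone and after thinning (edgeR, adjusted p = 0.085, 0.0605 and 0.0615). TIR1 at 2 h was at log2 -0.70 ± 0.223 (edgeR, adjusted p = 0.0422), with adjusted p up to 0.179 without water replicate a. AFB2 at 3 h was at -0.66 ± 0.244 (edgeR, adjusted p = 0.0457) and was lost under DESeq2 (adjusted p = 0.0679), the replicate block (adjusted p = 0.0545) and most left-out libraries, at -0.47 (adjusted p = 0.191) without water replicate c.

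Of the 8 other Aux/IAA genes tested, out of 22, none was called at 1 h, 1 was lower at 2 h, 2 were higher at 3 h and 1 was higher with RB, against water. At 1 h 2 of 8 had an unadjusted p under 0.05 by edgeR, and DESeq2 called 0. IAA16 stood at 295, 262 and 450 CPM at 3 h, against 147, 151 and 94.4 CPM in water (log2 1.35 ± 0.251; edgeR, adjusted p = 0.00052; kept in 22 of 22 alternatives). IAA10 stood at 9.58, 17.4 and 12.4 CPM with RB, against 3.19, 3.97 and 2.46 CPM in water (log2 1.94 ± 0.447; edgeR, adjusted p = 0.0036; kept in 21 of 21). IAA28, a repressor of lateral root formation, stood at 124, 98.1 and 99.1 CPM at 2 h, against 213, 215 and 171 CPM in water (log2 -0.89 ± 0.273; edgeR, adjusted p = 0.034), and the call was lost without water replicate a or b or 2 h replicate b or c (log2 -0.89 to -0.87). IAA28 at 2 h was also lost after thinning (log2 -0.91; edgeR, adjusted p = 0.0556). None of 4 other GH3 genes tested, out of 7, was called against water (edgeR; 0, 0, 2 and 2 of 4 at an unadjusted p under 0.05 at 1, 2 and 3 h and with RB; 0 by DESeq2).

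Among 8 ARF genes tested, out of 15, 1 was higher at 1 h, 2 were lower at 2 h, 1 was lower at 3 h and 1 was lower with RB. The call at 1 h was ARF2, a repressing ARF, at 172 ± 46 CPM, against 99.3 ± 16.2 CPM in water (SD, n = 3 each; log2 0.78 ± 0.222; edgeR, adjusted p = 0.0308). It was kept in 11 of 22 alternatives. Among those that lost it were the fits without water replicate a or b or 1 h replicate a or c, down to log2 0.51 (adjusted p = 0.216) without 1 h replicate c. ARF10 is a repressing ARF whose transcript is a target of the microRNA miR160. It had 2, 0 and 0 counts at 2 h and 2, 1 and 0 counts at 3 h, against 12, 32 and 6 counts in water. ARF10 was called lower at both times (edgeR, adjusted p = 0.00742 and 0.00088) and kept in all alternatives that tested it, 19 and 20. It passed the filter on low counts only through its water libraries, which favours a lower call. Alternatives that did not test it are not counted. With RB ARF10 had 3, 3 and 11 counts, or 2.05, 1.74 and 1.73 CPM, against 4.78, 5.29 and 4.92 CPM in water, and was not called. Of 5 TOPLESS corepressor genes 1 was called against water, TPR2, at 3 h (edgeR; 0, 0 and 1 of 5 at an unadjusted p under 0.05 at 1 h, at 2 h and with RB; 0 by DESeq2). TPR2 stood at 2.30, 2.00 and 1.49 CPM at 3 h, against 9.56, 17.5 and 4.92 CPM in water (log2 -2.50 ± 0.507; edgeR, adjusted p = 0.00109; kept in 21 of 21). LBD16, a factor that acts at the start of lateral roots, was 1 of 2 genes tested of its list and was lower at 2 h, at 12.2, 10.8 and 10.3 CPM, against 21.9, 28.9 and 23.0 CPM in water (log2 -1.15 ± 0.321; edgeR, adjusted p = 0.0209). That call was lost without water replicate b or 2 h replicate b or c (log2 -1.17 to -1.03). At 1 h, at 3 h and with RB 0 of 2 were called (edgeR; 1 of 2 each time at an unadjusted p under 0.05; 0 by DESeq2).

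All calls among genes of auxin synthesis were lower against water. Of 4 synthesis genes tested, out of 11, 1 was lower at 1 h, 1 at 2 h and 2 with RB, none was higher, and none was called at 3 h (2 of 4 at an unadjusted p under 0.05 by edgeR, 0 by DESeq2). YUC6, a flavin monooxygenase gene of the last step to auxin, had 3, 1 and 0 counts at 2 h, against 14, 49 and 8 in water (edgeR, adjusted p = 0.00839, kept in 21 of 21). YUC6 and YUC9, the latter called lower at 1 h and with RB, passed the filter on low counts only because of their water libraries. For such genes the filter favours a lower call, so the shared direction and the medians of this list are in part set by it. Of 7 genes of auxin inactivation and conjugate hydrolysis, out of 12, none was called at 1 h by edgeR or DESeq2 or at an unadjusted p under 0.05, 1 was higher at 2 h, 3 were higher and 1 lower at 3 h and 2 were higher with RB. The list joins enzymes with opposite roles: DAO2, an oxidase, and UGT74E2, a glucosyltransferase, take auxin or its precursor form out of the active pool, while ILR1, IAR3, ILL2 and ILL6 are amidohydrolases of the kind that frees hormones from conjugates. DAO2 was the call at 2 h (log2 1.47 ± 0.482; edgeR, adjusted p = 0.0475), and it was lost under other scalings, with no filter, with the replicate block and without most single libraries, at log2 1.14 (adjusted p = 0.221) without 2 h replicate c. At 3 h UGT74E2, IAR3 and ILL6 were higher and ILR1 was lower, and with RB the higher genes were the hydrolases IAR3 and ILL6. ILL6 at 3 h (edgeR, adjusted p = 0.0487) was named after its values were seen. UGT74E2 at 3 h was kept in 22 of 22 alternatives, with 40, 7 and 1 counts in water. ILR1 at 3 h was kept in 16 of 22 and IAR3 at 3 h in 19 of 22. IAR3 with RB was kept in 17 of 22, with an adjusted p of 0.15 without RB replicate c (edgeR). ILL6, which is also known to cleave jasmonate conjugates, stood at 13, 17.4 and 13.4 CPM with RB, against 2.79, 2.48 and 3.28 CPM in water (log2 2.38 ± 0.49; edgeR, adjusted p = 0.00141; kept in 21 of 21). With RB the median log2 fold change against water was -1.40 over the 4 synthesis genes tested and 0.33 over the 7 genes of the mixed list, beside -0.01 over all genes tested. It was -0.56 over the ARF genes, -0.90 over the other GH3 genes and -0.09 over the other Aux/IAA genes. Over the receptors it was -0.51, over the LBD genes -0.80, over the TOPLESS genes -0.28 and over the SAUR genes -0.37. These medians were not particular to RB. At 1, 2 and 3 h of H2O2 alone the synthesis median was -0.94, -0.91 and -0.74, and that of the other GH3 genes -0.58, -0.63 and -0.65. With RB against 2 h of H2O2 alone the synthesis median was -0.13.

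The SAUR genes, short transcripts named for their rise after auxin, went both ways. Of 12 tested, out of 80 annotated, 3 were higher and none lower at 1 h, 3 were higher and 2 lower at 2 h and again at 3 h, and 2 were higher and 2 lower with RB. SAUR34 stood at 7.37, 8.10 and 12.6 CPM at 1 h, against 0.797, 0.496 and 0.821 CPM in water, on 6 counts in all there (log2 3.72 ± 0.619; edgeR, adjusted p = 0.000528; kept in 21 of 21). SAUR72 stood at 6.84, 12.2 and 9.43 CPM with RB, against 42.6, 30.4 and 23.8 CPM in water (log2 -1.77 ± 0.344; edgeR, adjusted p = 0.000896; kept in 22 of 22). With RB against 2 h of H2O2 alone, no gene of any of these lists was called (edgeR and DESeq2; 1 to 2 genes of 5 lists had an unadjusted p under 0.05 and none of the other 4).

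**Figure D4:**
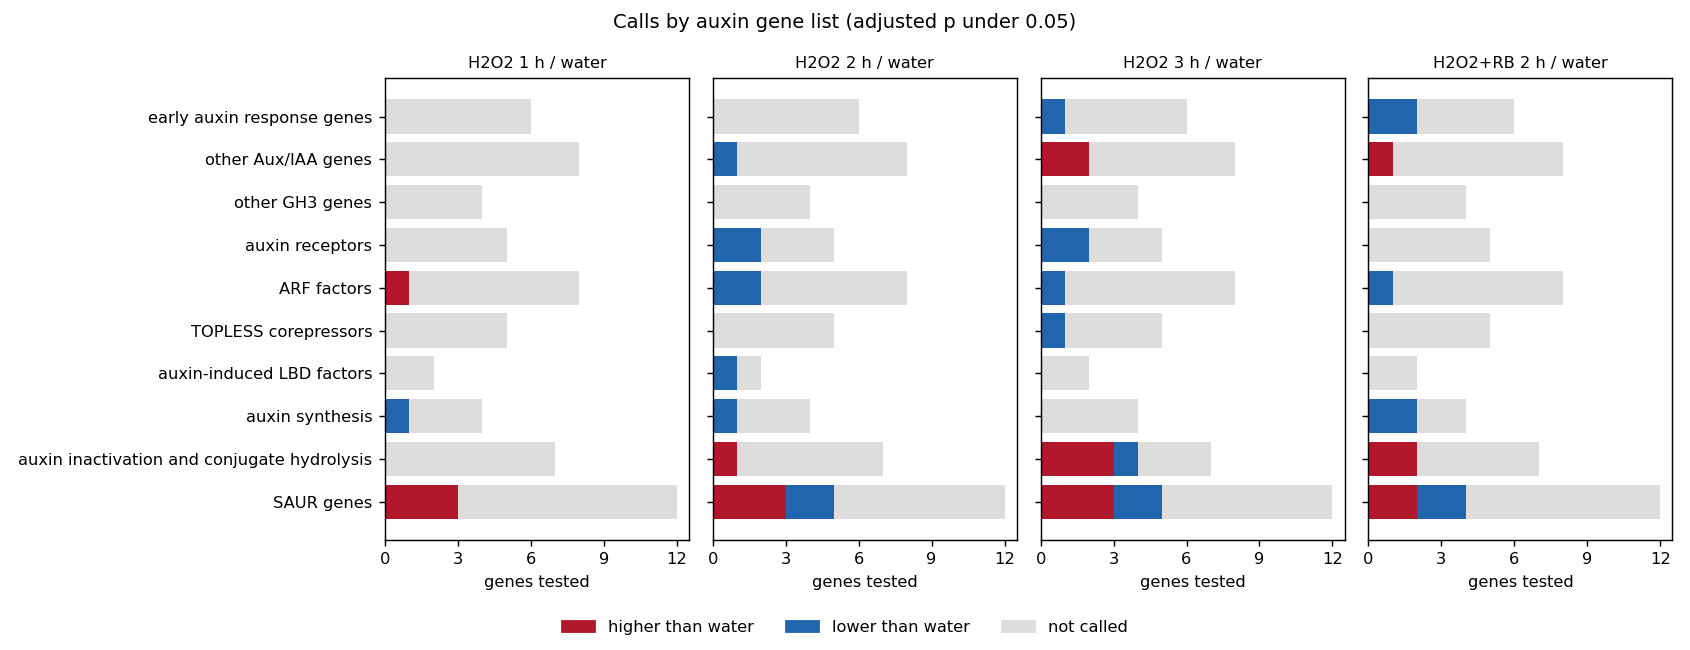
Number of genes tested in each auxin list that were higher (red), lower (blue) or not called (grey) against water in the 4 comparisons with water. The SAUR list holds the most calls and also the most tested genes (12), and the list of 4 other GH3 genes holds none in any of the comparisons. Of all genes tested, 9.59%, 13.9% and 30.5% were called at 1, 2 and 3 h of H2O2 and 21.2% with RB.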

How the data were processed

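RNA of 15 root libraries was counted with MARS-seq, a 3′ tag method, per the labels' protocols. STAR 2.4.2a, HTSeq, cutadapt, bcl2fastq and DESeq2 appear in the submitters' processing notes. Genome build, annotation, treatment of molecular identifiers and of reads matching several genes were not given in the sources used here. Raw counts deposited by the authors were used, and 30 further per-sample columns were not. The deposited log2 fold changes and p-values of the authors were quoted and entered no fit. Floors cover counting error only.

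Genes were filtered with filterByExpr (minimum count 10, minimum total 15), which set 4546 aside, and fitted with edgeR 4.0.16 in R 4.3.3: TMM, glmQLFit (robust, a term per group) and glmQLFTest, two-sided, BH over 9986 genes. The SE is the log2 fold change over the root of F, and 95% intervals use the fit's degrees of freedom. Log2 CPM used a prior count of 2. The script was tested on simulated data. DESeq2 1.42.0 was an alternative, as were other scalings, no filter, the groups compared alone, thinning to the lowest total, a replicate block and each library left out. Of the IDs, 99.8% matched RefSeq TAIR10.1, from which promoters were read; proteins were not analysed here. Of each list, genes were named from the 3 called ones of smallest adjusted p in a comparison. The members, lists and tests were chosen with earlier results of these data known. The labels do not say what the letters a, b and c stand for, and p-values measure the spread between these biological replicates.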

Additional observations from a re-analysis of the deposited data

How the results depend on the processing

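Of the fold changes of the 6 tested genes over 9 comparisons and all alternatives, 1068 kept their direction and side of the threshold, 25 lost the call, 13 gained one and 50 changed sign. IAA7 with RB against water was called in 22 of 22. At 3 h against water 1 call became 0 after thinning, where GH3.1 no longer passed the filter, and 0 to 1 without single libraries. With RB against water 2 calls became 1 with the groups compared alone, with the replicate block and after thinning, and 1 to 2 without single libraries. With RB against 3 h of H2O2 3 calls became 1 after thinning, 4 with DESeq2, 2 with upper-quartile scaling and with the replicate block, and 1 to 4 without single libraries. There IAA14 was lost with upper-quartile scaling (adjusted p = 0.0758), the groups alone (adjusted p = 0.063) and the replicate block (adjusted p = 0.0608), and GH3.1 with no filter (adjusted p = 0.0591). The test over 5 groups gave 2 calls in place of 1 with upper-quartile scaling, 0 without RB replicate b or c, 2 without RB replicate a, and otherwise 1 without single libraries. The cause was not tested.

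No sign change was of a called gene. Thinning gave IAA14 0.068 at 1 h and 0.033 at 3 h against water, IAA7 -0.17 at 3 h, and at 3 h against 1 h IAA7 -0.14 and IAA17 -0.017. Upper-quartile scaling, which moved the median of all genes by -0.16 at 3 h against water and -0.12 at 3 h against 1 h, gave IAA7 -0.16 and -0.047 there and IAA17 -0.11 at 3 h against 1 h. It also left 1268 of 3094 calls higher at 3 h against water, where TMM gave 1615 of 3048, 541 of 1419 against 690 of 1383 at 3 h against 1 h, and 968 of 1610 against 827 of 1642 with RB against 3 h. With no filter IAA14 was at 0.060 at 3 h against water and 0.13 at 3 h against 1 h, and IAA19 at 0.072 at 3 h against 2 h. At 3 h against 1 h DESeq2 gave IAA14 0.0026, and the groups alone gave IAA17 -0.020. Without single libraries, log2 changes crossed 0 as follows: at 1 h against water IAA7 ran over -0.29 to 0.11, IAA14 over -0.21 to 0.37 and GH3.1 over -0.38 to 0.16. At 2 h against water IAA14 ran over -0.75 to 0.029 and IAA17 over -0.35 to 0.040. At 3 h against water IAA7 ran over -0.20 to 0.23 and IAA14 over -0.22 to 0.40. With RB IAA19 ran over -0.00013 to 0.44 and GH3.1 over -0.16 to 0.37 against water, and GH3.3 over -0.36 to 0.39 against 2 h. At 3 h against 1 h IAA14 ran over -0.080 to 0.12 and IAA17 over -0.33 to 0.22. At 2 h against 1 h IAA7 ran over -0.33 to 0.0038 and GH3.3 over -0.29 to 0.50, and at 3 h against 2 h IAA19 over -0.21 to 0.17.

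The replicate letters were not taken as pairs: same-letter libraries form 30 pairs, whose correlation of deviations from group means was -0.44 to 0.64 (median -0.053), 8 were over 0.1, and 7 of 15 libraries were closest to their own letter. The replicate block gave 1 call with RB against water, IAA7, with IAA14 at log2 -1.37 (edgeR, adjusted p = 0.052), and changed no other count of calls against water. The lower counts of GH3.1, GH3.3 and IAA14, and the 3 libraries per group, limit what could be called, though GH3.1 and IAA14 were each called in a comparison with water. With RB against water the SE of the log2 change was 0.387 for GH3.1, 0.565 for GH3.3 and 0.452 for IAA14. It was 0.262 for IAA7, 0.281 for IAA17 and 0.32 for IAA19. Over all genes the median SE was 0.36 to 0.38 in the comparisons.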
